A study of Homo sapiens with 6 samples.

Results

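The heat shock proteins and their J-domain partners, the DNAJ proteins, were followed at the transcript level in a lung-metastatic breast cancer line. The genes were chosen by symbol: HSPA, HSPB, HSPD, HSPE or HSPH followed by a digit, HSP90 followed by letters and a digit, and DNAJA, DNAJB or DNAJC followed by digits. HSPA5 and HSPBP1 were left out by that rule, as were 2 symbols with a hyphen, HSPE1-MOB4 and DNAJC25-GNG10. The rule gave 65 genes of the 17687 with a named probe set. They comprised 2 HSP90, 11 HSPA, 1 HSPH, 1 HSPD, 1 HSPE, 6 HSPB, 4 DNAJA, 12 DNAJB and 27 DNAJC genes, each measured by a single probe set. HSPA8, HSPA1B, HSP90B1, HSPB2 and DNAJC5 were not analysed here.

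All samples were 4175 cells, a lung-seeking variant of the human line MDA-MB-231. In the siPGC1alpha group (3 arrays) the cells received an siRNA against PGC-1alpha, the coactivator encoded by PPARGC1A, and in the sicontrol group (3 arrays) a control siRNA, in both cases for 48 hours starting 24 hours after plating. Values are deposited log2 signals of single-colour arrays, and a difference of 1 is a factor of 2. Nothing in the labels says that the numbered replicates came from separate cultures, so p-values reflect variation among these 6 arrays alone, and that variation may be technical.

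Heat shock proteins bind unfolded or aggregating proteins and help them fold, travel or be degraded. HSP70 proteins (HSPA) work in a cycle of ATP binding and hydrolysis, J proteins (DNAJ) deliver clients to them and start the hydrolysis, and HSP110 proteins (HSPH1, HSPA4 and HSPA4L) reset the cycle by exchanging the nucleotide. HSP90 finishes kinases and steroid receptors, HSPD1 and HSPE1 form the folding chamber of mitochondria, and small heat shock proteins (HSPB) hold clients without ATP. Tumour cells are known to rely on this network, which the transcription factor HSF1 raises under stress by binding repeated GAA and TTC units in promoters.

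The DNA units that HSF1 is known to bind are shown first. They are given for some heat-inducible chaperone genes that hold them and for those with a 3-unit run before a start. Promoter windows of RefSeq (GRCh38.p14), 250 bases before to 50 after each annotated start, were found for 59 of the 65 genes. Both strands were searched for a pair of units, GAANNTTC or TTCNNGAA, in which N is any base. They were also searched for the 3-unit form, in which GAA and TTC alternate with 2 free bases between neighbours. The pairs read the same on both strands, and each 3-unit run holds 2 overlapping pairs. In the lines below, capitals mark the units and the lower-case bases flank them, written along the gene's own strand.
HSP90AA1: gggttcTTCCGGAAGGTTCgggagg
HSP90AB1, upstream run: agcaggTTCTGGAAGATTCatgggc
HSP90AB1, downstream run: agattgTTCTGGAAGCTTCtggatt
HSPA6: gaaaggTTCGCGAAAGTTCgcggcg
HSPD1: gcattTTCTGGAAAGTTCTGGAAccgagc
DNAJB6: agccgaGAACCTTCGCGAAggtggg
HSPA1A: accctgGAATATTCccgacc
DNAJB1: ggggcgGAAGGTTCtggagg
HSPB1: acgagaGAAGGTTCcagatg

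The first 6 lines carry 3 or more units in a row, and HSPD1 carries 2 such runs that overlap. The HSP90AA1 stretch lies at chr14:102087114-102087138 on the minus strand, with its capitals beginning 88 bases before a start. Those of HSP90AB1 lie at chr6:44247772-44247796 and chr6:44247825-44247849 on the plus strand, beginning 165 and 112 bases before a start. The HSPA6 stretch is at chr1:161524460-161524484 on the plus strand and begins 74 bases before the start, and that of DNAJB6 at chr7:157336867-157336891 on the plus strand, 131 bases before it. The HSPD1 stretch is at chr2:197500062-197500090 on the minus strand, 245 bases before one of the gene's 2 annotated starts. The pairs of HSPA1A (chr6:31815431-31815450, plus strand), DNAJB1 (chr19:14518461-14518480, minus strand) and HSPB1 (chr7:76302485-76302504, plus strand) begin 106, 77 and 182 bases before their starts.

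A pair was present for 20 of the 59 chaperone genes (33.9%) and a 3-unit run for 6 (10.2%). Of the 14250 measured genes with a window, 14.9% held a pair and 0.561% a 3-unit run. Counted by window, the shares were 26.9% and 7.69% of the 78 chaperone windows, beside 13.5% and 0.490% of all 35116 windows. The sixth gene with a 3-unit run was DNAJA1, where it begins just past the start. Of further heat-inducible genes, HSPH1 and HSPE1 had a window and no pair, while HSPA4L, HSPB8 and DNAJB4 held a pair. HSPA1A and HSPA1L lie head to head, and the same pair was counted in the windows of both. A match describes the letters only, and a window without one says nothing of HSF1.

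**Figure D1:**
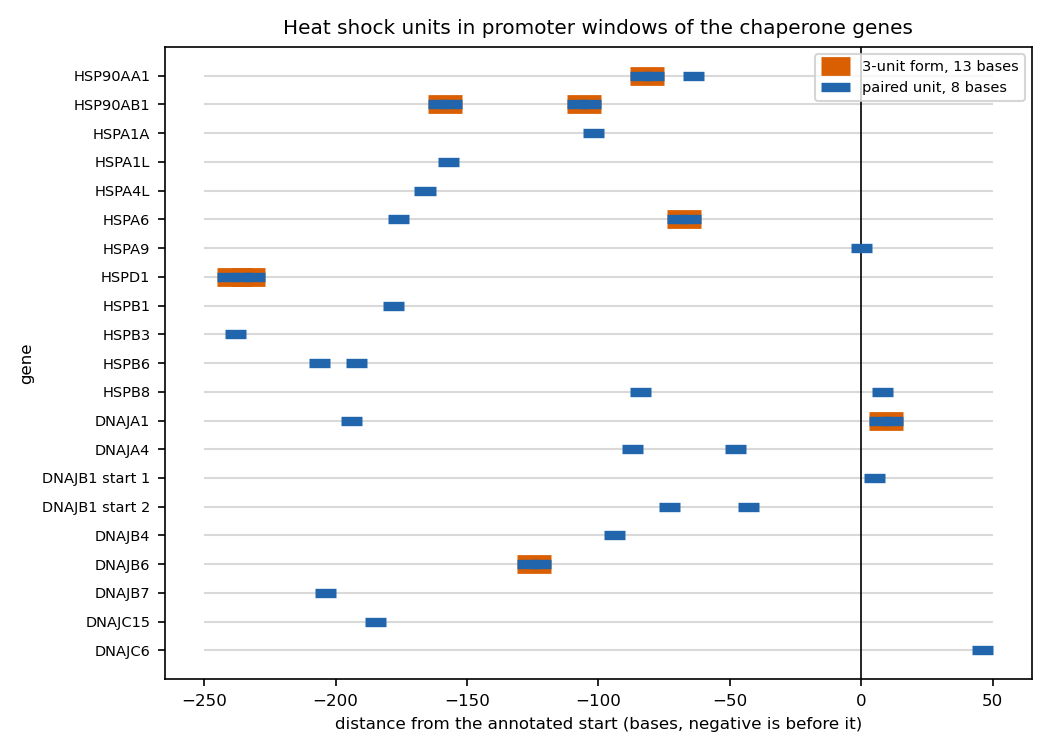
Positions of heat shock units in the promoter windows (grey lines) of the 20 chaperone genes with a match. The horizontal axis is the distance in bases from the annotated start, the blue bars are pairs of units and the orange bars 3-unit runs. DNAJB1 has 2 starts with a match, and 6 genes carry orange bars.

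PPARGC1A, the targeted gene, read 7.95, 6.52 and 6.47 on the arrays labelled siPGC1alpha, against 6.45, 6.49 and 6.49 on the control arrays. No array labelled siPGC1alpha was below the lowest control, so the probe set shows no knockdown at the transcript level, and directions below cannot be assigned to one. The probe set is dim, with a control mean of 6.48 beside a median of 7.28 over all genes. Its shift on replicate 1 was 1.47, where genes of like control signal had a median shift of 1.23. The array of siPGC1alpha replicate 1 stood apart. Across all genes it correlated with the other 5 arrays at a Pearson r of 0.585 to 0.604, and those 5 with each other at 0.995 to 0.996. Over the 65 chaperone genes the values were 0.436 to 0.462 for replicate 1 and 0.995 to 0.997 among the other 5. Median negative control signal was 3.79 on replicate 1, 3.37 and 3.41 on replicates 2 and 3, and 3.27 to 3.44 on the controls. The chaperone genes are therefore described first without replicate 1, then on replicate 1 alone and over all 6 arrays. Markers of cell types were read on the same arrays. Of 5 markers of a mesenchymal breast line, 1 lay above 0 and 4 below without replicate 1: MMP1 differed by 0.20, vimentin (VIM) by -0.046, SPARC by -0.058, CD44 by -0.014 and AXL by -0.0077. MMP1 had an unadjusted p of 0.038 (limma across all genes), and both its siPGC1alpha arrays were above every control, while those of VIM were below every control. Of 5 luminal and epithelial markers, 3 lay above 0 and 2 below, with ESR1 at -0.17 and the others between -0.026 (CDH1) and 0.021 (GATA3). Control means in that list were 9.40 for KRT19, 7.83 for GATA3, 7.43 for EPCAM, 5.99 for ESR1 and 3.97 for CDH1. Of 4 leukocyte and endothelial markers, 1 lay above 0 (PECAM1, 0.042) and 3 below (CD3E -0.23, CDH5 -0.075 and PTPRC -0.036). In the 3 lists 0 genes passed the test.

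Without replicate 1, the chaperone transcripts of the siPGC1alpha group lay close to those of the controls in every family. Of the 65 genes, 0 passed the test (limma, Benjamini-Hochberg over all genes, lowest adjusted p = 0.9998), as did 0% of all 17687 genes. The median difference was 0.0041, beside 0.0080 over all genes, with 35 genes above 0 and 30 below. All 65 genes had a 95% interval within a 2-fold change in either direction, as 99.9% of all genes did. For 63 of them it also lay within 1.5-fold, beside 95.2% of all genes. The other two were DNAJC27 and DNAJB13.

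**Figure D2:**
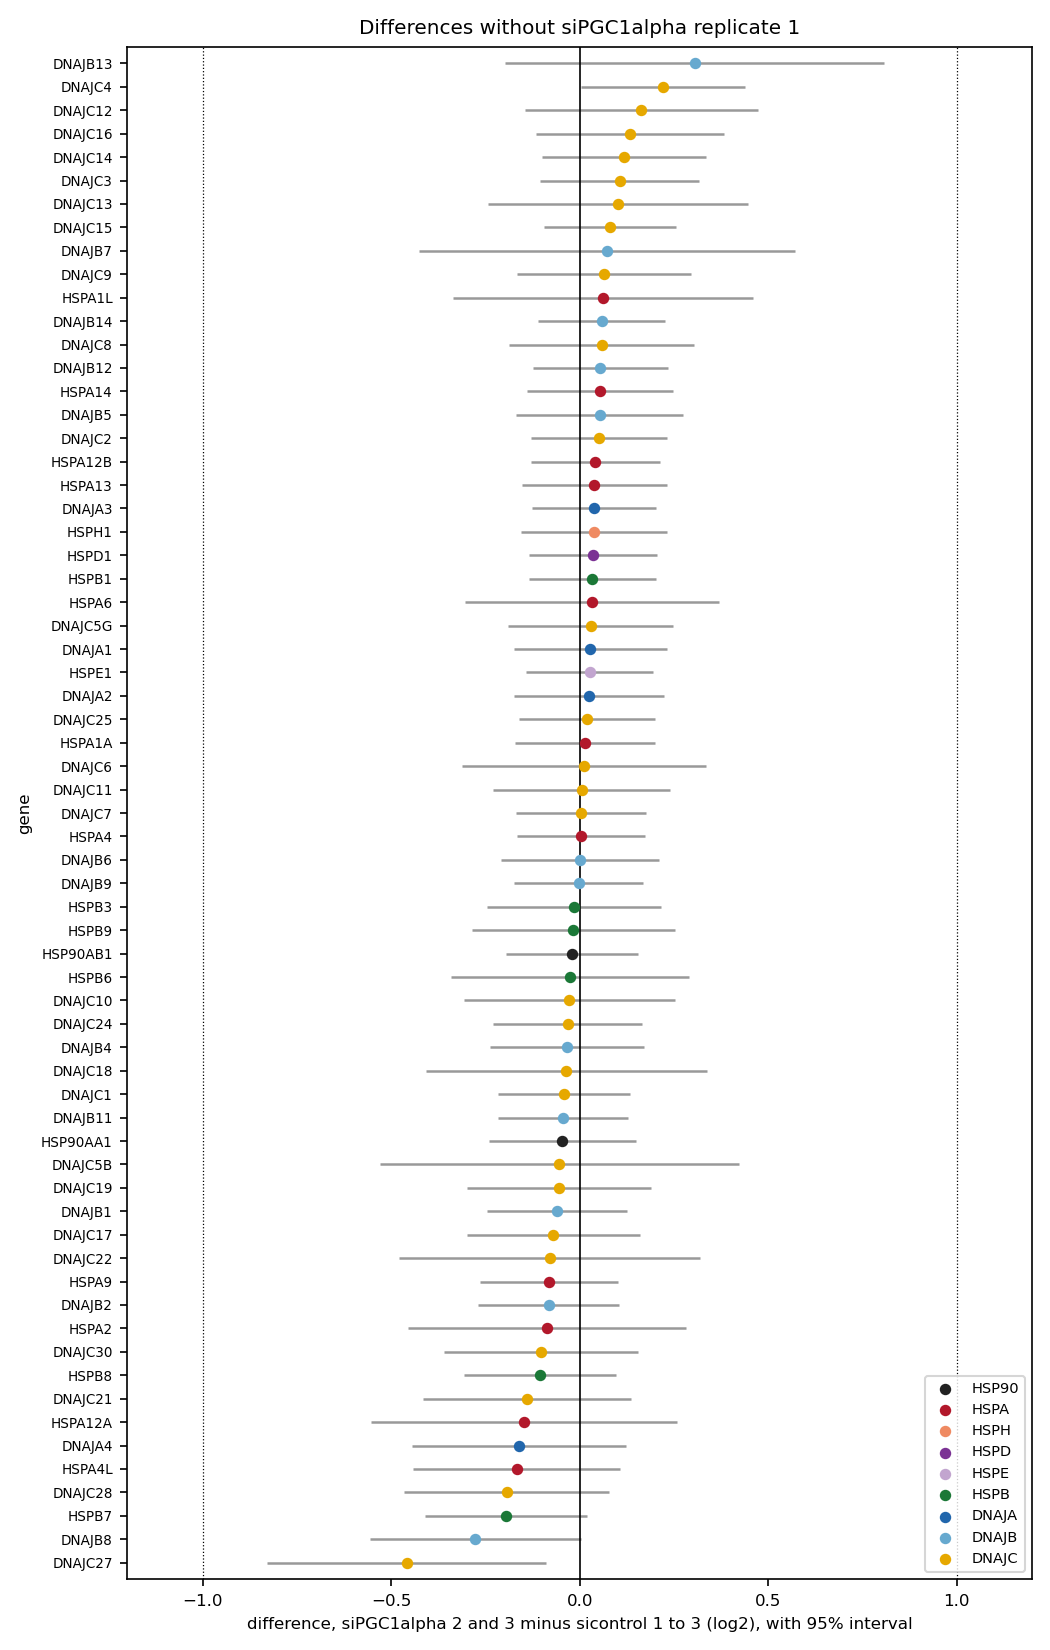
Difference between siPGC1alpha replicates 2 and 3 and the 3 control arrays for each chaperone gene, on the log2 scale. Points are limma estimates coloured by family, grey bars are 95% intervals, and dotted lines mark a 2-fold change. Estimates ran from -0.46 (DNAJC27) to 0.31 (DNAJB13), and all intervals lay between the dotted lines.

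The cytosolic HSP90 genes differed by a few hundredths. HSP90AA1, the stress-inducible form, read 11.91 and 11.92 on siPGC1alpha replicates 2 and 3, against 12.05, 11.95 and 11.88 on the control arrays. The groups overlapped, and the difference was -0.046 (SE 0.082), a ratio of 0.968 with an interval of 0.846 to 1.11. HSP90AB1, the constitutive form, read 12.00 and 12.00, against 12.06, 12.03 and 11.96 on the controls, again with overlap. Its difference was -0.020 (SE 0.073), or a ratio of 0.986 with an interval of 0.874 to 1.11.

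Among the HSP70 genes, the stress-inducible HSPA1A gave nearly the same signal on all 5 arrays. It read 9.30 and 9.26 on siPGC1alpha replicates 2 and 3, against 9.26, 9.34 and 9.20 on the controls, a difference of 0.014 (SE 0.078). HSPA1A and HSPA1B are near-identical genes, so this signal may come from either. HSPA6, a strictly inducible HSP70 of human cells, read 6.69 and 6.77, against 6.98, 6.58 and 6.53, with a difference of 0.033 (SE 0.14). The mitochondrial HSP70, HSPA9, read 11.55 and 11.59, against 11.58, 11.71 and 11.65, with overlap of the groups and a difference of -0.081 (SE 0.077). HSPA13, a microsomal HSP70, differed by 0.039, and HSPA14, which works with DNAJC2 at the ribosome, by 0.054. HSPA2, known for its part in sperm development, differed by -0.087, with 7.81, 7.60 and 7.27 on the controls. The testis form HSPA1L differed by 0.063, and the distant relatives HSPA12A and HSPA12B by -0.15 and 0.041.

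The HSP110 genes, nucleotide exchange factors of HSP70, also overlapped between the groups. HSPH1 read 10.61 and 10.72 on siPGC1alpha replicates 2 and 3, against 10.67, 10.66 and 10.55 on the controls (difference 0.037, SE 0.081). HSPA4 read 9.77 on both, against 9.81, 9.73 and 9.76, a difference of 0.0039 (SE 0.071). HSPA4L had the lowest estimate of the HSPA family, -0.17 (SE 0.11). It read 9.63 and 9.86, against 9.80, 10.08 and 9.86, so only replicate 2 was below the control range.

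The mitochondrial chaperones, which fold the proteins imported into the organelle that PGC-1alpha is known to build, had differences between -0.10 (DNAJC30) and 0.079 (DNAJC15). HSPD1 (HSP60) read 11.11 and 11.17 on siPGC1alpha replicates 2 and 3, against 11.08, 11.11 and 11.12 on the controls. HSPE1 (HSP10), its lid, read 10.49 and 10.50, against 10.51, 10.46 and 10.44. Their differences were 0.036 (SE 0.071) and 0.026 (SE 0.071), with ratios of at most 1.15 at the upper end of either interval. DNAJA3 (TID1), the J protein of the mitochondrial matrix, read 8.69 and 8.67, against 8.63, 8.65 and 8.65. Its groups did not overlap, yet the difference was 0.038 (SE 0.069). DNAJC15 and DNAJC19, J proteins of the inner membrane import motor, differed by 0.079 and -0.055, and DNAJC11 and DNAJC30 by 0.0051 and -0.10. The median of these 8 mitochondrial genes was 0.016.

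Of the small heat shock genes, 1 of 6 lay above 0 and 5 below, and 0 passed the test. HSPB1 (HSP27) read 11.67 and 11.61 on siPGC1alpha replicates 2 and 3, against 11.61, 11.60 and 11.62 on the controls, a difference of 0.033 (SE 0.071). HSPB7, a muscle-enriched member, read 6.73 and 6.56, against 6.75, 6.86 and 6.91, so that both arrays were below every control. Its difference of -0.20 (SE 0.090) did not pass the test. HSPB8, a partner of the co-chaperone BAG3, differed by -0.10 (SE 0.085). HSPB3, HSPB6 and HSPB9 differed by -0.014, -0.026 and -0.016. HSPB3 and HSPB6 are known from muscle and HSPB9 from testis, and HSPB9 had a control mean of 3.93 beside a 95th percentile of the negative controls of 5.38 to 5.56.

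The class A J proteins, which are built like the bacterial DnaJ, comprised 4 genes, with 3 differences above 0 and 1 below. DNAJA1 read 11.20 and 11.18 on siPGC1alpha replicates 2 and 3, against 11.27, 11.14 and 11.07 on the controls (difference 0.028, SE 0.085). DNAJA2 differed by 0.025, and the heat-inducible DNAJA4 by -0.16 (SE 0.12). The groups overlapped for DNAJA1, DNAJA2 and DNAJA4, while those of DNAJA3, described above, did not.

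In class B, DNAJB1 (HSP40), the main inducible partner of HSP70, read 10.03 and 10.05 on siPGC1alpha replicates 2 and 3, against 10.18, 10.07 and 10.04 on the controls. Its difference was -0.061 (SE 0.078). DNAJB6, which suppresses aggregation of polyglutamine proteins, differed by 0.0019, DNAJB2 by -0.082, DNAJB4 by -0.034 and DNAJB5 by 0.053. Class B members of the endoplasmic reticulum gave -0.0030 for DNAJB9 and -0.044 for DNAJB11, both induced by the unfolded protein response. The membrane-anchored DNAJB12 and DNAJB14 of the same compartment gave 0.055 and 0.059, and the groups of DNAJB14 did not overlap (8.52 and 8.55, against 8.51, 8.47 and 8.46). The testis genes had the wider estimates: DNAJB13 0.31 (SE 0.21), DNAJB8 -0.28 (SE 0.12) and DNAJB7 0.073 (SE 0.21). DNAJB13 owed its wide interval to control replicate 3, which read 4.88 where replicates 1 and 2 read 5.52 and 5.60. Without that control its difference was 0.079.

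Class C, whose members share little with each other beyond the J domain, held both genes with an unadjusted p under 0.05. DNAJC27, a Rab-like small GTPase with a J domain, read 4.95 and 5.40 on siPGC1alpha replicates 2 and 3, against 5.81, 5.47 and 5.61 on the controls. Both arrays were below every control, and the difference was -0.46 (SE 0.16), a ratio of 0.728 with an interval of 0.563 to 0.941. The control mean of DNAJC27, 5.63, was only just above the 95th percentile of the negative controls, 5.38 to 5.56 on the control arrays. DNAJC4 read 8.005 and 8.17, against 7.85, 7.78 and 7.96, with both arrays above every control. Its difference was 0.22 (SE 0.091), a ratio of 1.17 with an interval of 1.002 to 1.36. Their unadjusted p-values (limma across all genes) were 0.022 and 0.048, and the 2 genes make up 3.08% of the 65, beside 4.44% of all genes. One lay on each side: 1.54% of the chaperone genes were lower in this sense beside 2.34% of all genes, and 1.54% higher beside 2.11%. Neither passed after adjustment over all genes (adjusted p = 0.9998 for both). Without siPGC1alpha replicate 2 the difference of DNAJC27 was -0.23 and without replicate 3 it was -0.68, while DNAJC4 gave 0.14 without replicate 3.

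The remaining class C genes spanned -0.19 to 0.16. DNAJC28 had -0.19 (SE 0.11), with 4.80 and 5.13 on siPGC1alpha replicates 2 and 3, against 5.15, 5.24 and 5.09 on the controls. DNAJC12, associated with the aromatic amino acid hydroxylases, had 0.16 (SE 0.13) at a control mean of 3.47, near the negative control median. J proteins of the endoplasmic reticulum gave 0.13 for DNAJC16, 0.12 for DNAJC14, 0.11 for DNAJC3 (an inhibitor of eIF2alpha kinases), -0.028 for the reductase DNAJC10 and -0.041 for DNAJC1. For DNAJC3, DNAJC14 and DNAJC16 the estimate came mainly from replicate 3, which read 8.73, 8.07 and 8.76 where replicate 2 read 8.52, 7.86 and 8.52. Genes acting on ribosomes, RNA or histones gave 0.051 for DNAJC2, 0.058 for the spliceosomal DNAJC8, 0.065 for the histone chaperone DNAJC9, -0.070 for DNAJC17, -0.14 for DNAJC21 and -0.032 for DNAJC24, which helps make diphthamide. In vesicle traffic, DNAJC13 of endosomes gave 0.10, the auxilin DNAJC6 0.011, DNAJC5B -0.054 and DNAJC5G 0.029. DNAJC7, a co-chaperone bridging HSP70 and HSP90, gave 0.0041, and DNAJC25, DNAJC18 and DNAJC22 gave 0.020, -0.036 and -0.080.

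Counted over the whole set, siPGC1alpha replicates 2 and 3 both lay above every control for 4 genes (6.15%, beside 11.3% of all genes) and below every control for 3 (4.62%, beside 8.42%). The first were DNAJA3, DNAJB14, DNAJC15 and DNAJC4, and the second HSPB7, DNAJB8 and DNAJC27. Both shares were below those of all genes. The spread among the control arrays was also ordinary, with a median SD of 0.089 for the chaperone genes and 0.099 over all genes (n = 3). It was 0.087 in the 56 genes at or above the mean 95th percentile of the negative controls and 0.28 in the 9 below it. Those 9 were HSPB9, DNAJC12, DNAJC5G, DNAJB7, HSPA12A, HSPA1L, DNAJC5B, DNAJC28 and DNAJB13. Signals of different probe sets do not measure relative abundance, and this division marks how far a probe set stood from background.

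**Figure D3:**
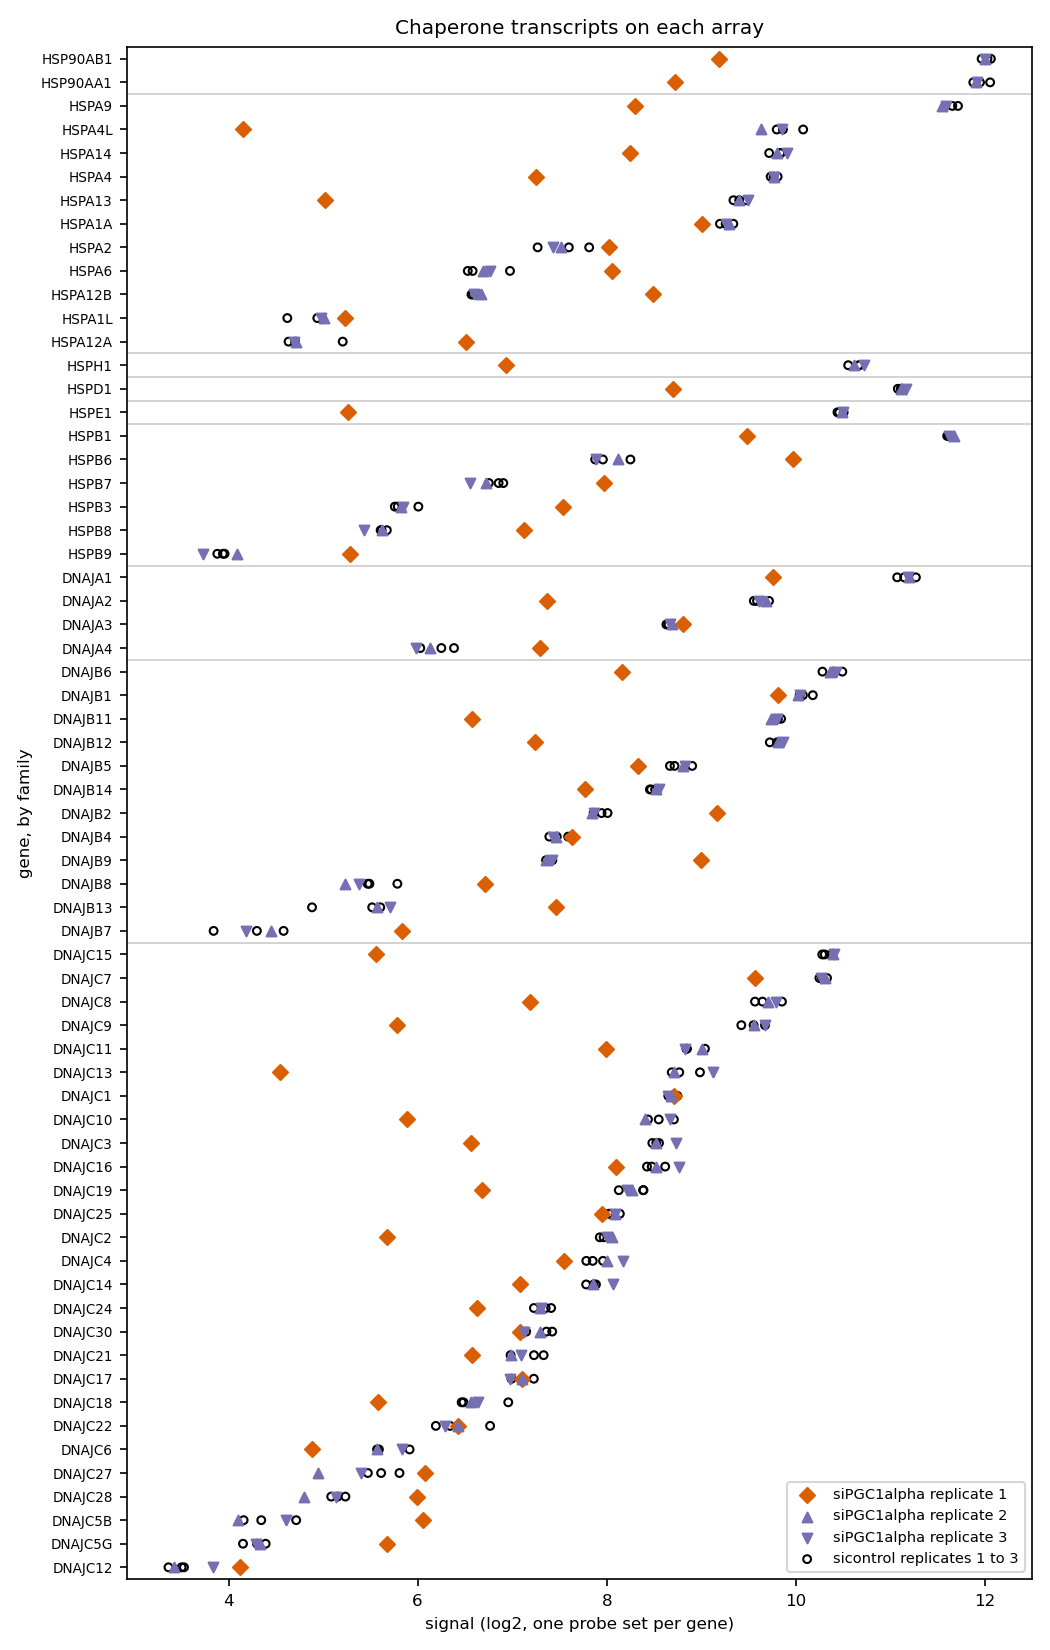
Signal of each of the 65 chaperone genes on each array, on the log2 scale, in families and by control mean. Diamonds are siPGC1alpha replicate 1, triangles siPGC1alpha replicates 2 and 3, and open circles the 3 control arrays. Triangles and circles lie together, and the diamonds lie below them for most bright genes and above them for most dim ones.

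The 20 genes with a pair had a median difference of -0.0061 and the 39 with a window and no pair 0.020, and the 6 with a 3-unit run had 0.015. With replicate 1 in the fit the medians were -0.20, -0.17 and -0.76, beside 0.19 over all genes. The median control signals of these sets were 9.59, 8.07 and 11.13, beside 7.28 over all genes. Shifts on replicate 1 went with control signal, as described below, and the sets were not matched for it. Without replicate 1 the 3-unit genes ranged from -0.046 (HSP90AA1) to 0.036 (HSPD1). Of a wider list of 25 heat-inducible genes, 21 were measured, 0 passed the test, and 11 lay above 0 and 10 below with a median of 0.0019, beside 0.0080 over all genes. The lowest p-values in that list belonged to CRYAB, an alphaB crystallin that is itself a small heat shock protein (-0.24, SE 0.11), HSPA4L, HSPB8 and STIP1, which links HSP70 to HSP90 (-0.067, SE 0.076). CRYAB had a control mean of 4.26, below the 95th percentile of the negative controls, 5.38 to 5.56.

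Factors that drive or assist the chaperones were also near the controls. HSF1, the master regulator of the heat shock response, read 9.98 and 9.95 on siPGC1alpha replicates 2 and 3, against 9.77, 9.85 and 9.94 on the controls. Both arrays were above every control, as for 11.3% of all genes, and the difference of 0.11 (SE 0.081) did not pass the test. Replicate 1 read 10.57, also above every control. That was a shift of 0.71, where genes of like control signal had a median shift of -1.34. Without replicate 1, HSF5 differed by 0.15, HSBP1, a binding protein of HSF1, by 0.094, and HSBP1L1 by -0.0081, giving 3 above 0 and 1 below. HSF5 had a control mean of 3.83, below the 95th percentile of the negative controls, 5.38 to 5.56. Of 13 exchange and release factors of HSP70, 9 lay above 0 and 4 below (median 0.016), with SIL1 at 0.085, BAG5 at 0.078, GRPEL1 at 0.060 and BAG3 at 0.046. Of 20 measured HSP90 co-chaperones, 11 lay above 0 and 9 below (median 0.0032), among them NUDC at 0.068, FKBP8 at 0.069 and AIPL1 at -0.18. The control mean of AIPL1, 4.10, was also below that 95th percentile. None of these genes passed the test.

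Of 14 genes of the CCT chaperonin and prefoldin, 5 lay above 0 and 9 below (median -0.0055), with CCT6B at 0.29 (SE 0.12), VBP1 at -0.14, PDRG1 at 0.11 and PFDN1 at -0.078. CCT6B, a testis form, had a control mean of 3.46, near the negative control median. Of 15 further mitochondrial chaperones and proteases, 13 lay above 0 and 2 below, with a median of 0.060. Among them TIMM44, which anchors HSPA9 at the import channel, had 0.23 (SE 0.089), TRAP1, the mitochondrial HSP90, 0.13 (SE 0.089), CLPB 0.10 and OMA1 0.16. The 13 endoplasmic reticulum chaperones had a median of 0.015, with PDIA4 at 0.15 (SE 0.081) and SDF2L1 at -0.17 (SE 0.11). Of 6 J-domain or crystallin genes with other symbols, 1 lay above 0 (SEC63, 0.080) and 5 below, including GAK at -0.085 and HSCB at -0.040. In each of these lists 0 genes passed the test.

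The arrays of siPGC1alpha replicates 2 and 3 were both above every control for 7 of the 15 mitochondrial genes and below every control for 0, beside 11.3% and 8.42% of all genes. The 7 were TIMM44, TRAP1, CLPB, GRPEL1, LONP1, HTRA2 and SPG7, and TIMM44 was the 1 with an unadjusted p under 0.05 (limma, 0.037). GRPEL1, LONP1, HTRA2 and SPG7, an exchange factor of HSPA9 and 3 proteases, differed by 0.060, 0.060, 0.066 and 0.059, and the 3 proteases were named after their values were seen. Of the 21 heat-inducible genes, 0 were above every control in this way and 4 below, and of the 20 HSP90 co-chaperones 2 were above and 3 below. The counts were 2 above (HSF1 and HSF5) and 0 below for the 4 HSF and HSBP genes. They were 1 and 0 for the 13 exchange factors, and 1 and 2 for CCT and prefoldin. They were 1 and 0 for the 13 genes of the endoplasmic reticulum and 0 and 1 for the J-domain and crystallin genes. These lists were chosen with earlier results of these data known, and they share members.

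With replicate 1 in the fit, the list medians were -0.52 for the heat-inducible genes and -0.29 for the HSF and HSBP genes. They were -0.40 for the exchange factors, -0.12 for the HSP90 co-chaperones and -1.08 for CCT and prefoldin, beside 0.19 over all genes. The further mitochondrial genes had -0.26, those of the endoplasmic reticulum -0.53 and the J-domain and crystallin genes 0.19. In the same order, the median control signals were 10.54, 9.08, 9.49, 8.99, 10.30, 9.39, 10.58 and 6.36, beside 7.28 over all genes. Shifts on replicate 1 went with control signal, as described below, and the medians were not matched for it. In each list 0 genes passed the test in that fit too (limma, Benjamini-Hochberg over all genes).

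On siPGC1alpha replicate 1 the shifts of the chaperone genes ran from -5.76 (HSPA4L) to 2.13 (DNAJB13). Against the control mean, 25 of the 65 genes (38.5%) were more than 2-fold lower on this array, beside 25.3% of all genes, and 16 (24.6%) were more than 2-fold higher, beside 38.9%. Their median was -0.44, beside 0.61 over all genes. These values describe 1 array and carry no test. Markers of cell types shifted on the same array. Of the mesenchymal list, CD44 shifted by -3.04, MMP1 by -2.38, AXL by -1.69, VIM by -0.21 and SPARC by 1.09. Of the luminal and epithelial list, KRT19 shifted by 3.30, ESR1 by 1.82, CDH1 by 1.46, GATA3 by 0.95 and EPCAM by -0.53. PTPRC shifted by 1.49, CD3E by 1.28, CDH5 by 0.90 and PECAM1 by 0.24, and the part of these markers in the shifts of the chaperone genes was not tested. The size and sign went with the control signal: all 22 chaperone genes among the brightest 20% of all genes on the controls were lower, and 16 of the 19 among the dimmest 40% were higher. Most genes of like signal moved likewise. In 10 equal classes of control signal, the upper quartile of the shift over all genes was -0.93 in the brightest and -0.23 in the next. In the 4 dimmest classes the lower quartile was 0.53 to 0.91. The Pearson r between control mean and shift was -0.755 over the 65 genes (Spearman rho -0.797), and -0.629 over all genes, where the points share the same arrays and the control mean enters both axes.

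**Figure D4:**
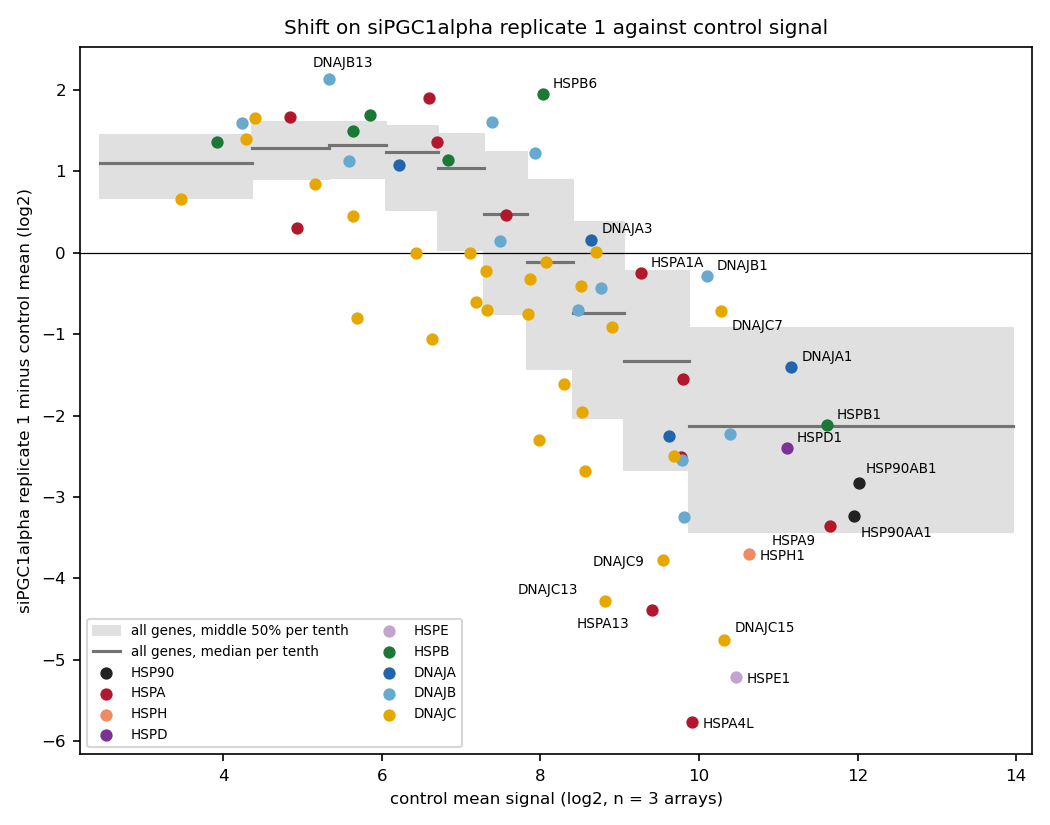
Shift of each chaperone gene on siPGC1alpha replicate 1 (vertical axis, log2 signal minus the control mean) against its control mean (horizontal axis, log2, 3 arrays), coloured by family. Grey boxes show the middle 50% and the grey line the median of all genes in each of 10 equal classes of control signal. The all-gene median falls to -2.13 in the brightest class, where HSPA4L lies at -5.76 and DNAJB1 at -0.29.

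The lowest shifts belonged to HSPA4L, HSPE1, DNAJC15, HSPA13 and DNAJC13. HSPA4L read 4.15 on replicate 1, with the controls at 9.91 ± 0.15 (SD, n = 3), and HSPE1 read 5.26, against 10.47 ± 0.034. DNAJC15 read 5.56, against 10.32 ± 0.050, HSPA13 5.02, against 9.41 ± 0.068, and DNAJC13 4.54, against 8.81 ± 0.15. Their shifts, from -4.27 to -5.76, were followed by DNAJC9 at -3.77, HSPH1 at -3.70 and HSPA9 at -3.36. HSP90AA1 and HSP90AB1 shifted by -3.24 and -2.83, HSPD1 by -2.40 and HSPB1 by -2.12. The median of all genes in the brightest of 10 equal classes of control signal was -2.13 and in the class below it -1.34. DNAJC13 lay in a dimmer class, with a median of -0.74.

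Other bright genes shifted less on the same array. DNAJB1 read 9.81, with the controls at 10.10 ± 0.072 (SD, n = 3), and HSPA1A 9.01, against 9.26 ± 0.071. These inducible partners, a J protein and its HSP70, shifted by -0.29 and -0.25. DNAJC7 shifted by -0.72 and DNAJA1 by -1.40, the latter being 2.64-fold lower. DNAJA3 and DNAJC1, with control means of 8.64 and 8.70, shifted by 0.16 and 0.010. Of the 22 chaperone genes among the brightest 20%, DNAJB1, HSPA1A and DNAJC7 were the 3 within 2-fold of the control mean. Over all genes the upper quartile of the shift was -0.93 in the brightest class of signal and -0.23 in the next.

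Some partners and paralogs shifted by unlike amounts on this array and others by like amounts, as the following pairs, chosen after their values were seen, show. HSPD1 and HSPE1, whose products form one chamber and whose genes lie head to head, shifted by -2.40 and -5.20. The paralogs HSPA4 and HSPA4L shifted by -2.51 and -5.76, with control means of 9.77 and 9.91. HSPA14 and its ribosomal partner DNAJC2 shifted by -1.55 and -2.30. HSP90AA1 and HSP90AB1 lay closer together, as did DNAJB1 and HSPA1A. By compartment, the median shift was -2.01 for the 8 mitochondrial genes, -1.36 for 10 genes of the endoplasmic reticulum and -0.36 for 10 cytosolic J proteins. It was -0.90 for the 8 cytosolic HSP70 and HSP110 genes and -3.03 for the 2 cytosolic HSP90 genes. In the same order, these groups also differed in control signal, with medians of 9.61, 8.54, 9.19, 9.52 and 11.99.

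The highest shifts on replicate 1 were found mostly in dim genes. DNAJB13 shifted by 2.13, HSPB6 by 1.94, HSPA12B by 1.90 and HSPB3 by 1.68. HSPA12A followed with 1.66, DNAJC5B with 1.65, DNAJB9 with 1.60 and DNAJB7 with 1.59. In the 4 dimmest of the 10 classes, which hold all of these but HSPB6 and DNAJB9, the median of all genes lay between 1.10 and 1.32. Of the 6 small heat shock genes, 5 were more than 2-fold higher, and HSPB1 was lower. DNAJB9, an inducible J protein of the endoplasmic reticulum, read 8.99 on replicate 1, with the controls at 7.39 ± 0.033 (SD, n = 3). The median shift of all genes in its class of signal was 0.47. DNAJB2 and HSPB6 had control means of 7.94 and 8.03 and shifted by 1.23 and 1.94, where the median of all genes in the same class of signal was -0.12. ERCC spike-in controls had a median of 6.502 on the same array, against 5.04 to 5.11 on the controls, and their part in these shifts was not tested.

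With all 6 arrays in the fit, again 0 of the 65 genes passed (limma, lowest adjusted p = 0.663), as did 0% of all genes, and 0 had an unadjusted p under 0.05, beside 0.017% of all genes. The median difference was -0.16, beside 0.19 over all genes, and single genes ran from -2.03 (HSPA4L) to 0.91 (DNAJB13). The 95% interval lay within 2-fold for 21 of the 65 genes, beside 27.1% of all genes. Its median half-width was 1.06 on the log2 scale, where it was 0.22 without replicate 1. DNAJA3 was the 1 gene whose 3 siPGC1alpha arrays were all above every control (8.80, 8.69 and 8.67, against 8.63, 8.65 and 8.65), beside 5.42% of all genes, and 0 genes were below, beside 1.85%.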

How the data were processed

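Per probe set, the value that the authors deposited for each of 6 arrays was taken to be a log2 signal, and titles gave the groups. The log2 scale was inferred from the range of the values, since no label names it, and the authors' background correction and normalization were not given in the sources used here. Per the labels' protocols, 10 ng of column-purified RNA per sample was labelled with a low-input kit. Of 24320 probe sets, the platform annotation gives 1 symbol to 17709, several to 0 and none to 6611, and RefSeq (GRCh38.p14) holds each of the 17709 genes under the same symbol. For 20 genes with several probe sets the one with the highest mean was kept, which left 17687 genes, with no filter on dim genes. A further deposited table with 6 columns whose names match no sample was not used.

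The two-sided test came from lmFit and eBayes (limma 3.58.1, R 4.3.3) on all genes, over 6 arrays and over 5 without siPGC1alpha replicate 1, with Benjamini-Hochberg adjustment over all genes at 0.05. The test was tried on simulated data for the 5 arrays only, with no array set apart like siPGC1alpha replicate 1, so the trial does not cover the 6-array fit. A positive difference means higher in siPGC1alpha than in sicontrol. Lists are described by counts and medians, without a set test. The genes, lists and settings were chosen with earlier results of these data known. The rule for named genes took all HSP genes, the 8 brightest J proteins, the smallest p-values in each direction, the largest shifts on siPGC1alpha replicate 1 and up to 4 genes per further list, and the remaining J proteins were added so that each member has a value. Settings varied were dim-gene filters, the mean of probe sets, quantile normalization, median centring, eBayes with trend and robust options, an adjusted p under 0.1, the replicate number as a block, and each array left out. The number of arrays limits the precision, and no detection calls were used.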

Additional observations from a re-analysis of the deposited data

How the results depend on the processing

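The count of chaperone genes passing the test was 0 in both fits under every setting run, as was the count of all genes. The lowest adjusted p ran from 0.439 to 0.9998 over the settings of the 6-array fit and from 0.662 to 0.9999 over those without siPGC1alpha replicate 1. The median difference of the chaperone genes over 6 arrays was -0.30 with genes under the 25th percentile of signal left out (52 chaperone genes kept) and -0.58 with those under the median left out (41 kept), where the dim genes that read high on replicate 1 are gone. Leaving out each array in turn gave medians of -0.21 to 0.0041 over 6 arrays, the upper value being without siPGC1alpha replicate 1, where 40 of the 65 single differences changed sign. Without that replicate, leaving out each further array gave -0.017 to 0.026, and 9 to 12 single differences changed sign, none of which passed the test. Where 1 siPGC1alpha array remained it was assumed to vary like the controls. Deviations of same-numbered arrays from their group means had r across genes of -0.25, -0.18 and -0.086 over 6 arrays. There siPGC1alpha replicate 1 enters its group mean, so these values cannot settle pairing. Without it r was 0.093 for replicate 2 and -0.035 for replicate 3, and the numbers were not taken as pairs. With the replicate block the medians were -0.16 over 6 arrays and 0.026 without replicate 1, with 0 genes passing. Quantile normalization gave -0.16 and -0.0063.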

Other observations

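The 4 genes near the rule that were left out gave the following values. HSPA5 (BiP), the HSP70 of the endoplasmic reticulum, read 11.55 and 11.59 on siPGC1alpha replicates 2 and 3, against 11.55, 11.58 and 11.57 on the controls, and 10.19 on replicate 1. HSPBP1, an exchange factor of HSP70, differed by 0.0088 (SE 0.092) without replicate 1. The probe set named HSPE1-MOB4, a readthrough of HSPE1 and its neighbour, shifted by -0.048 on replicate 1, where the probe set of HSPE1 shifted by -5.20. DNAJC25-GNG10, a readthrough of DNAJC25, shifted by -0.70, where DNAJC25 shifted by -0.12. HSPE1-MOB4 and DNAJC25-GNG10 differed by -0.075 and 0.019 without replicate 1. How far these probe sets share sequence with those of HSPE1 and DNAJC25 was not tested. Across the 65 chaperone genes the shift on replicate 1 had a Pearson r of -0.310 with the logarithm of the RefSeq gene span (Spearman rho -0.325), on the 1 array and with control signal not held fixed.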
